A study of Mus musculus with 16 samples.

Results

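The MHC class I presentation pathway was followed at the RNA level through 10 genes: the heavy chains H2-K1 and H2-D1, the light chain B2m, the peptide loading genes Tap1, Tap2 and Tapbp, the inducible proteasome subunits Psmb8, Psmb9 and Psmb10, and the regulator Nlrc5. The genes were chosen by name and matched to the gene identifiers of the count tables, which list 49585 genes, and all 10 were found. Expression was measured by RNA-seq in C2C12, a mouse myoblast line that forms multinucleated myotubes when serum is withdrawn, in 16 libraries spread over 2 tables. In the AMPK table, wild-type cells (WT) and cells with both catalytic AMPK subunits, Prkaa1 and Prkaa2, knocked out by CRISPR-Cas9 (AMPK-KO) were compared at day 0 in growth medium (d0) and at day 8 of differentiation in equine serum (d8), with 2 libraries in each of the 4 groups. In the TET2 table, undifferentiated AMPK-null cells (d0) carried a FLAG-BirA tag at the endogenous Tet2 gene, either with the wild-type coding sequence (TET2-WT) or with a serine replaced by glutamate to mimic phosphorylation (TET2-S97E). Each of these genotypes was represented by 2 clones with 2 replicates per clone, and all 8 libraries of that table were AMPK-null by their labels.

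The AMPK libraries held 17883417 to 24663079 counts each, and those of the TET2 series 19801909 to 37790358. Levels are given as CPM, counts divided by the scaled library size and expressed on the usual per-million basis within each table, and the tables were tested separately. The labels do not say whether the replicates were separate cultures, so p-values may measure technical spread only. The study shows RNA-seq tracks of independent AMPK-KO lines, so the AMPK-KO replicates may be different lines, but the labels do not assign libraries to lines. AMPK-KO against WT and TET2-S97E against TET2-WT are therefore differences between these lines and clones. In bulk RNA, fewer cells expressing a gene and less RNA per cell cannot be told apart.

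Class I molecules display peptides from inside the cell to CD8 T cells. The proteasome cuts cytosolic proteins, TAP1 and TAP2 pump the peptides into the endoplasmic reticulum, tapasin (Tapbp) holds the empty heavy chain at the pump, and the heavy chain reaches the surface only with peptide and B2m bound. Interferons raise nearly the whole pathway: they replace the constitutive catalytic subunits Psmb5, Psmb6 and Psmb7 with Psmb8, Psmb9 and Psmb10, and they induce NLRC5, which binds no DNA itself but acts through an enhanceosome of RFX, CREB/ATF and NF-Y proteins on class I promoters. Skeletal muscle cells are known for low class I expression in the resting state.

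Of the 10 genes, 8 had a promoter in the RefSeq set for GRCm38.p6 (250 bases before to 50 after the start site, 32851 entries). Both strands were searched for the interferon-stimulated response element core GAAANNGAA, the gamma-activated site TTCNNNGAA, the X2 box TGACGC and the Y box CCAAT, which reads ATTGG on the other strand. The matches are descriptions of sequence and not of bound factors. The stretches below are shown because the heavy chains share an arrangement of X2 and Y boxes, because B2m and Psmb8 hold the interferon-type matches, and because Tap1 and Psmb9 share the interval between their RefSeq start sites. Capitals mark the motif matches, which did not overlap each other, and all stretches are written 5′ to 3′.
H2-K1: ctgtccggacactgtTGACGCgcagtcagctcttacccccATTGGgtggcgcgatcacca
H2-D1: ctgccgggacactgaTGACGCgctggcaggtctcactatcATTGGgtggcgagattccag
B2m: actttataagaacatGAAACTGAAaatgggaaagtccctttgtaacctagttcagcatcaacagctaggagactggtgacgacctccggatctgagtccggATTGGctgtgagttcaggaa
Psmb8: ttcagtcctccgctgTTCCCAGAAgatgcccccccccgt
Tap1 and Psmb9: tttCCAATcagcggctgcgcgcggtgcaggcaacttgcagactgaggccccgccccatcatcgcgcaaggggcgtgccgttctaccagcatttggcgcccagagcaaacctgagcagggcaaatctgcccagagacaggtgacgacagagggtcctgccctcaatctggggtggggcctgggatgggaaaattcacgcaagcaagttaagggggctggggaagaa

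The H2-K1 stretch lies at chr17:34000344-34000403 on the minus strand and the H2-D1 stretch at chr17:35262978-35263037 on the plus strand. In both, TGACGC starts 25 bases ahead of the inverted Y box, a spacing found in 6 of the 32851 entries: H2-K1 (2 entries), H2-D1, H2-M3, Gm33299 and Hspa14. TGACGC itself was in 7.4% of all promoters and in 2 of the 8 matched here. The B2m stretch, chr2:122147533-122147653 on the plus strand, holds the response element core, which occurred in 8.56% of all promoters and in none of the other 7. The Psmb8 stretch, chr17:34198083-34198121 on the plus strand, holds the gamma-activated site, found in 8.3% of all promoters. The interval between the RefSeq starts of Psmb9, read leftwards, and Tap1, read rightwards, is chr17:34187331-34187555 (plus strand shown), and its single CCAAT falls 222 bases before the Tap1 start. CCAAT was in 37.4% of all promoters and in 6 of the 8, all but Psmb8 and Psmb10. The Psmb10 window held none of these motifs.

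**Figure D1:**
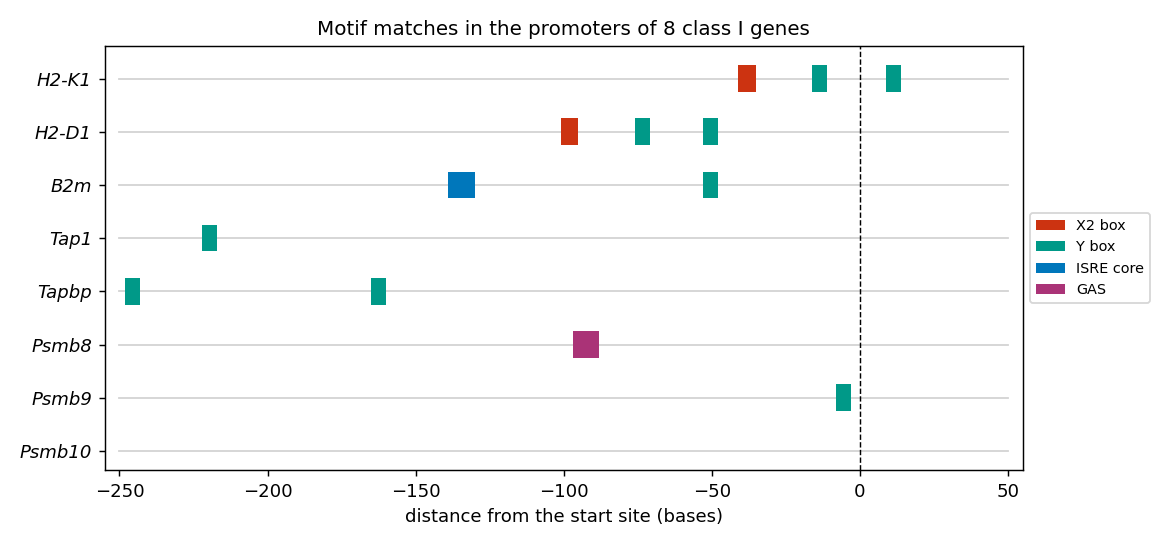
Matches to the 4 motifs (coloured bars as wide as the motif) in the RefSeq promoters of 8 class I genes, plotted by distance from the start site in bases. H2-K1 and H2-D1 each carry an X2 box 25 bases ahead of an inverted Y box, at different distances from the start.

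The genes lie on 3 mouse chromosomes (GRCm38). H2-K1 (17:33996017-34000347, minus strand), Tapbp (17:33915899-33929292) and H2-D1 (17:35262730-35267499) are in the MHC region, and Psmb9 (17:34181987-34187764, minus strand), Tap1 (17:34187553-34197225), Psmb8 (17:34197721-34201454) and Tap2 (17:34203527-34216321) follow each other within it. B2m is at 2:122147686-122153083, and chromosome 8 holds Nlrc5 (8:94434356-94527272) and Psmb10 (8:105935735-105938444, minus strand). The GENCODE model of Psmb9 starts farther out than the RefSeq entry and overlaps the start of Tap1, with 3.87% of the Tap1 and 5.79% of the Psmb9 exon bases shared. Other genes overlap 29% of the exon bases of Tapbp, 18.5% of Tap2 and 14.7% of Psmb8, and the strand setting of the counting was not stated, so these counts are less certain. C2C12 comes from C3H mice, whose H2 haplotype differs from that of the reference, so reads from polymorphic and closely related H2 genes may be split or lost.

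RNA of the targeted genes was lower in AMPK-KO than in WT libraries but not at 0, and counts over whole genes do not show edited exons. Prkaa1 was at 159 and 159 CPM in WT d0 against 79.7 and 78 in AMPK-KO d0, and at 126 and 125 against 83.3 and 82.5 at d8 (edgeR adjusted p = 0.0116 and 0.0419). Prkaa2 was at 1.69 and 1.79 CPM in WT d0 against 0.209 and 0.421 in AMPK-KO d0, which was not called, and at 6.22 and 10.1 against 1.26 and 0.826 at d8 (edgeR adjusted p = 0.0527 and 0.019). In the TET2 table, which has no AMPK wild-type library and was scaled on its own, Prkaa2 RNA was at 0.454 to 1.73 CPM. All 4 d8 libraries carried the muscle genes Des and Myog, and Des, the muscle intermediate filament, was at 2700 and 3220 CPM in WT d8 and at 1260 and 2940 in AMPK-KO d8. Of the leukocyte markers, Ptprc, Adgre1, Cd3e and Itgam were at 2 counts or fewer in every library. In the AMPK table Csf1r and Cd68 passed the filter on low counts, and Cd68 was the most abundant of that list at 0.845 to 2.76 CPM. The summed leukocyte list, of 7 genes, was at 1.455 to 3.319 CPM there. In the TET2 table that sum was at 7.868 and 4.751 CPM in TET2-S97E clone 1 and at 2.581 to 3.639 in the other libraries.

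AMPK-KO d8 replicate 1 stood apart from every other library. Interferon-stimulated genes summed to 2293 CPM in it, against 242.2 in AMPK-KO d8 replicate 2 and 126.3 to 223.8 in the WT and AMPK-KO d0 libraries. Ifit1, an interferon-induced RNA-binding protein, was at 333 CPM against 8.31 in replicate 2, and at most 1.08 in the other 6. Ifnb1, the interferon-beta gene, had 9 counts in replicate 1 and 0 in the other 7. The muscle list moved the other way, with 1909 CPM in replicate 1 against 6245 in replicate 2, and Myh3, embryonic myosin, at 83.7 against 953. The main results that rest on the AMPK-KO d8 group are given with and without this library, and the part of interferon or of the lower muscle genes in them was not tested.

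Per kilobase of merged exon, which allows levels of different genes to be compared, B2m was highest in both tables, at a median of 441 CPM per kb in the AMPK table (range 223 to 943) and 534 in the TET2 table (462 to 672). Tapbp (median 35.6, range 18 to 106), H2-D1 (29.3, 21.2 to 52.4) and H2-K1 (23.7, 13.7 to 45.5) followed in the AMPK table, with ranges that overlapped each other. Psmb10 came next at a median of 7.16 CPM per kb (4.84 to 21.1), above Tap2 at 1.84 (0.606 to 4.81). Tap1 at 0.247 (0.128 to 2.12) and Nlrc5 at 0.23 (0 to 0.517) were lower, and their ranges overlapped. Psmb8 (0.0371, 0 to 0.929) and Psmb9 (0.013, 0 to 0.424) were at the bottom. In the TET2 table the order was the same but for H2-K1 ahead of H2-D1 and Psmb9 ahead of Psmb8, both pairs with overlapping ranges. So the light chain was abundant in these muscle cells, while the inducible subunits Psmb8 and Psmb9 were near the limit of detection outside AMPK-KO d8 replicate 1.

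At d0, B2m, H2-K1, H2-D1 and Nlrc5 were lower in both AMPK-KO libraries than in either WT library, and none passed the test over 14329 genes. B2m was at 430 and 320 CPM in WT and at 201 and 192 in AMPK-KO. The change on the log2 scale was −0.93 (SE 0.374, edgeR adjusted p = 0.219), and the groups did not overlap. H2-K1 was at 71.3 and 80.4 CPM in WT against 54.2 and 61.6 in AMPK-KO (log2 change −0.39, 95% interval −1.31 to 0.53, edgeR adjusted p = 0.692). H2-D1 was at 79.2 and 73.4 CPM against 67.9 and 59.4 (log2 change −0.26, interval −0.99 to 0.47). Both heavy chains were thus separated by group, with intervals that spanned 0.

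Nlrc5 had the largest estimate of the 8 at d0: it was at 4.39 and 4.23 CPM in WT (91 and 78 counts) and at 0.314 and 0 CPM in AMPK-KO (6 and 0 counts). Both AMPK-KO libraries were far below both WT libraries, with a log2 change of −4.78 (SE 1.54, unadjusted p = 0.0166, edgeR adjusted p = 0.144). The fitted size rests on single libraries: it was −9.49 without AMPK-KO d0 replicate 1, which leaves a library at 0 counts, and −3.78 without AMPK-KO d0 replicate 2. DESeq2 called it (adjusted p = 0.0188), and edgeR called it in 2 of the 8 fits that left out a library. Among these was the fit without AMPK-KO d8 replicate 1, a library that is not in the d0 groups but adds to the shared estimate of spread. Nlrc5 passed the filter on low counts through the WT libraries, where it was high, so these calls are not read as support. Psmb10 was at 8.25 and 9.32 CPM in WT and at 13.2 and 14.6 in AMPK-KO, the only one of the 10 genes higher in both AMPK-KO libraries (log2 change 0.67, edgeR adjusted p = 0.372). Tapbp overlapped, with WT at 132 and 65.4 CPM and AMPK-KO at 74.1 and 109, and so did Tap1 and Tap2.

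Over the 8 genes tested at d0, edgeR called 0, with 2 at an unadjusted p under 0.05 (B2m and Nlrc5), beside 3.52% of all genes called. DESeq2 called only Nlrc5, beside 7.35% of all genes called lower. Psmb8 and Psmb9 were too low to test. Nlrc5 passed the filter on low counts through the WT libraries, so its call and its place in these tallies are not read as support. The median log2 change of the 8 was −0.451, beside −0.00102 over all genes tested, and 7 of the 8 were negative. Groups did not overlap, with AMPK-KO lower, for 4 of 8, where 25.7% of all genes tested did so. Leaving Nlrc5 aside, these were B2m, H2-K1 and H2-D1. Muscle genes were lower in the same comparison: 8 of 9 were negative (median −3.29), and Myog, Myod1 and Mymk, which drive muscle differentiation and fusion, were called. Their summed level was 1383 and 2007 CPM in WT d0 against 973.5 and 1214 in AMPK-KO d0. Of 5 fibroblast genes, 3 were negative (median −1.26), with 0 called and 2 at an unadjusted p under 0.05 by edgeR. The part of either list in the class I values was not tested.

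At d8 the estimates were positive for 7 of the 8 genes, none passed the test, and the level in AMPK-KO depended on which library was read. In the same comparison 7 of 9 muscle genes had negative estimates (median −0.829, 0 called by edgeR, 4 at an unadjusted p under 0.05), and 4 of 5 fibroblast genes did (median −1.81), with Col1a1 and Lum called lower. Their part in the class I values was not tested, and without AMPK-KO d8 replicate 1 the medians were 0.00872 and −1.47 with 0 called. Psmb10 and Tapbp were higher in both AMPK-KO libraries. Psmb10 was at 9.03 and 11.2 CPM in WT and at 36 and 16 in AMPK-KO (log2 change 1.36, SE 0.377, unadjusted p = 0.0082, edgeR adjusted p = 0.0886), and DESeq2 called it (adjusted p = 0.0163). Tapbp was at 134 and 127 CPM in WT and at 383 and 176 in AMPK-KO (log2 change 1.10, SE 0.444, edgeR adjusted p = 0.201). Without AMPK-KO d8 replicate 1 the log2 change was 0.68 for Psmb10 and 0.45 for Tapbp, with edgeR adjusted p = 0.314 and 0.639.

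For H2-K1, H2-D1, B2m, Tap1 and Tap2 the AMPK-KO libraries lay on either side of WT at d8. H2-K1 was at 67.7 and 74 CPM in WT and at 134 and 40.4 in AMPK-KO. H2-D1 was at 77.8 and 91.1 CPM in WT and at 135 and 54.8 in AMPK-KO. B2m was at 444 and 414 CPM in WT and at 811 and 345 in AMPK-KO. In each of these, replicate 1 was the highest and replicate 2 the lowest of the 4 libraries. Tap1 showed the widest split of the 5, at 1.54 and 1.55 CPM in WT and at 11.6 and 1.17 in AMPK-KO. Its log2 change was 2.04 (nominal interval 0.23 to 3.86, edgeR unadjusted p = 0.0626, adjusted p = 0.246). Tap2 was at 7.82 and 13.7 CPM in WT and at 18.2 and 6.07 in AMPK-KO. Without AMPK-KO d8 replicate 1 the log2 changes turned negative, to −0.79 for H2-K1, −0.61 for H2-D1, −0.30 for B2m, −0.39 for Tap1 and −0.80 for Tap2, none of them called.

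Nlrc5 again was lower in both AMPK-KO libraries at d8, with 60 and 57 counts in WT (3.31 and 2.67 CPM) and 30 and 0 counts in AMPK-KO (1.22 and 0 CPM). The log2 change was −2.24 (SE 1.29, edgeR adjusted p = 0.348). Without AMPK-KO d8 replicate 1 the remaining library was at 0 counts and the fit gave −8.89 (SE 2.03, edgeR adjusted p = 0.0996), a size that depends on the prior count of the fit. The regulator thus had 30 counts in the library where the other 9 genes were highest and none in the other. Of the 8 genes tested at d8, edgeR called 0, with 2 at an unadjusted p under 0.05, beside 5.35% of all genes called, and DESeq2 called 1, beside 3.87% of all genes called higher. Groups did not overlap, with AMPK-KO higher, for 2 of 8, beside 30% of all genes. The median of the 8 was 0.364, beside 0.0392 over all genes, and without AMPK-KO d8 replicate 1 it was −0.496, with 6 of 8 negative.

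**Figure D2:**
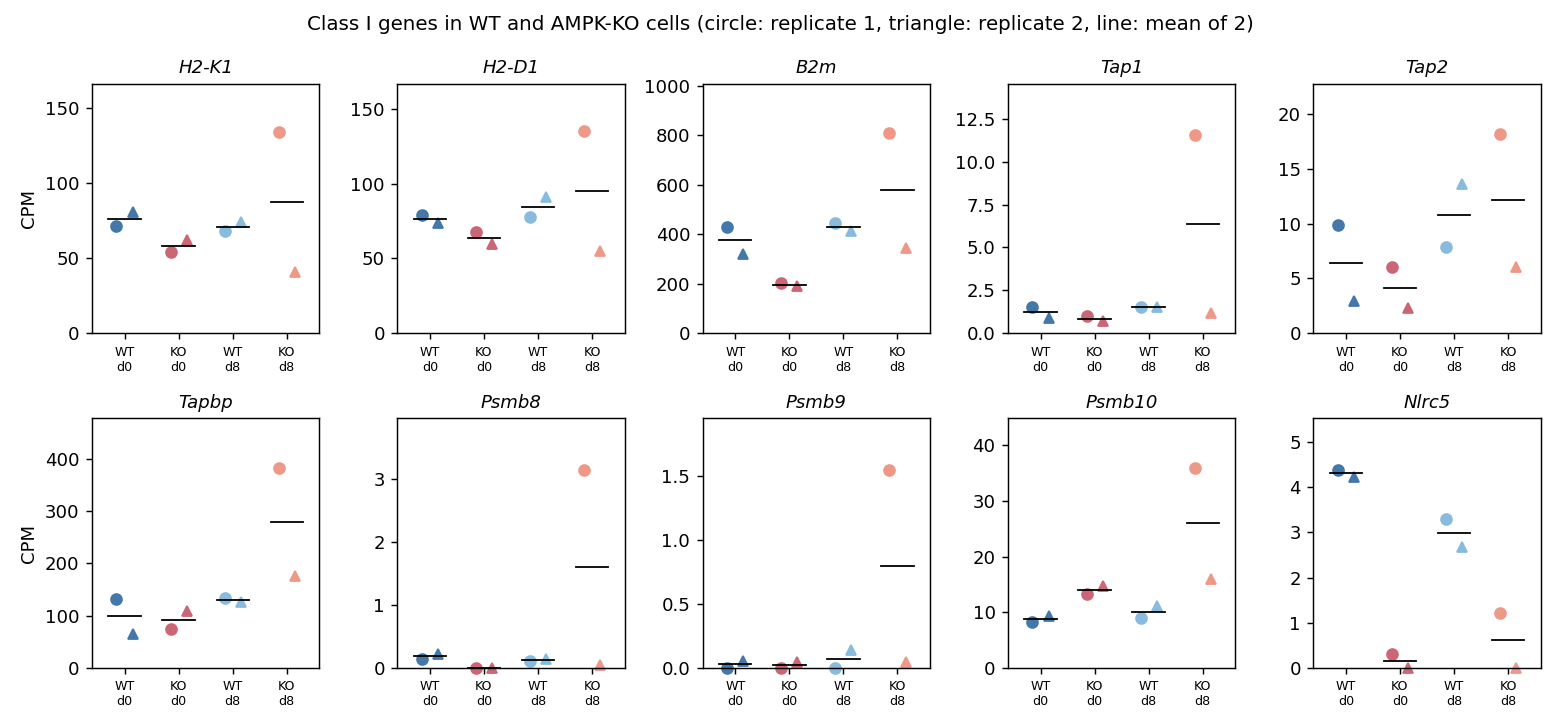
Level of each of the 10 genes (CPM, linear axes from 0 that differ between panels) in the 8 libraries of the AMPK table, with circles for replicate 1, triangles for replicate 2 and a line at the group mean. AMPK-KO d8 replicate 1 is the highest library for 9 of the 10 genes, and Nlrc5 is lower in every AMPK-KO library than in every WT library.

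The split between the AMPK-KO d8 replicates ran through all 10 class I genes, but not through the general loading factors or the constitutive proteasome. Replicate 1 exceeded replicate 2 by 3.31-fold for H2-K1 (95% counting interval 3.06 to 3.57), 2.47-fold for H2-D1 and 2.35-fold for B2m. The ratio was 9.94 for Tap1 (6.54 to 15.8), 3 for Tap2, 2.17 for Tapbp and 2.25 for Psmb10. Psmb8 had 77 counts in replicate 1 and 1 in replicate 2 (ratio 64.7, interval 11.3 to 2590), and Psmb9 had 38 and 1 (ratio 31.9, interval 5.39 to 1290). In the other 6 libraries Psmb8 had at most 4 counts and Psmb9 at most 3. These intervals cover counting error only and compare 2 libraries, not conditions.

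All 8 tested genes were more than 1 log2 unit higher in replicate 1, with a median of 1.44, where 8.21% of all genes tested were over 1 and the median was 0.00427. Among 12 tested nonclassical class I heavy chains, relatives of H2-K1 and H2-D1, 11 were higher (median 1.59). H2-T23, which encodes the Qa-1 ligand of the NK receptor NKG2A, was at 214 CPM against 70.7, and H2-Q4 at 34.1 against 5.25. All 21 tested interferon-stimulated genes were higher (median 4.71). Some of these may have passed the filter on low counts only through the AMPK-KO d8 group, where they were high, so this tally is not read as support. Only 2 of 11 genes of the constitutive proteasome, its PA28 activator and its assembly factor were higher (median −0.323): Psmb5, Psmb6 and Psmb7, the counterparts that the inducible subunits replace, were at 40.2, 84.6 and 87.4 CPM in replicate 1 against 46, 121 and 132 in replicate 2. The general loading factors, such as calreticulin, were near even, with 5 of 8 higher (median 0.136).

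**Figure D3:**
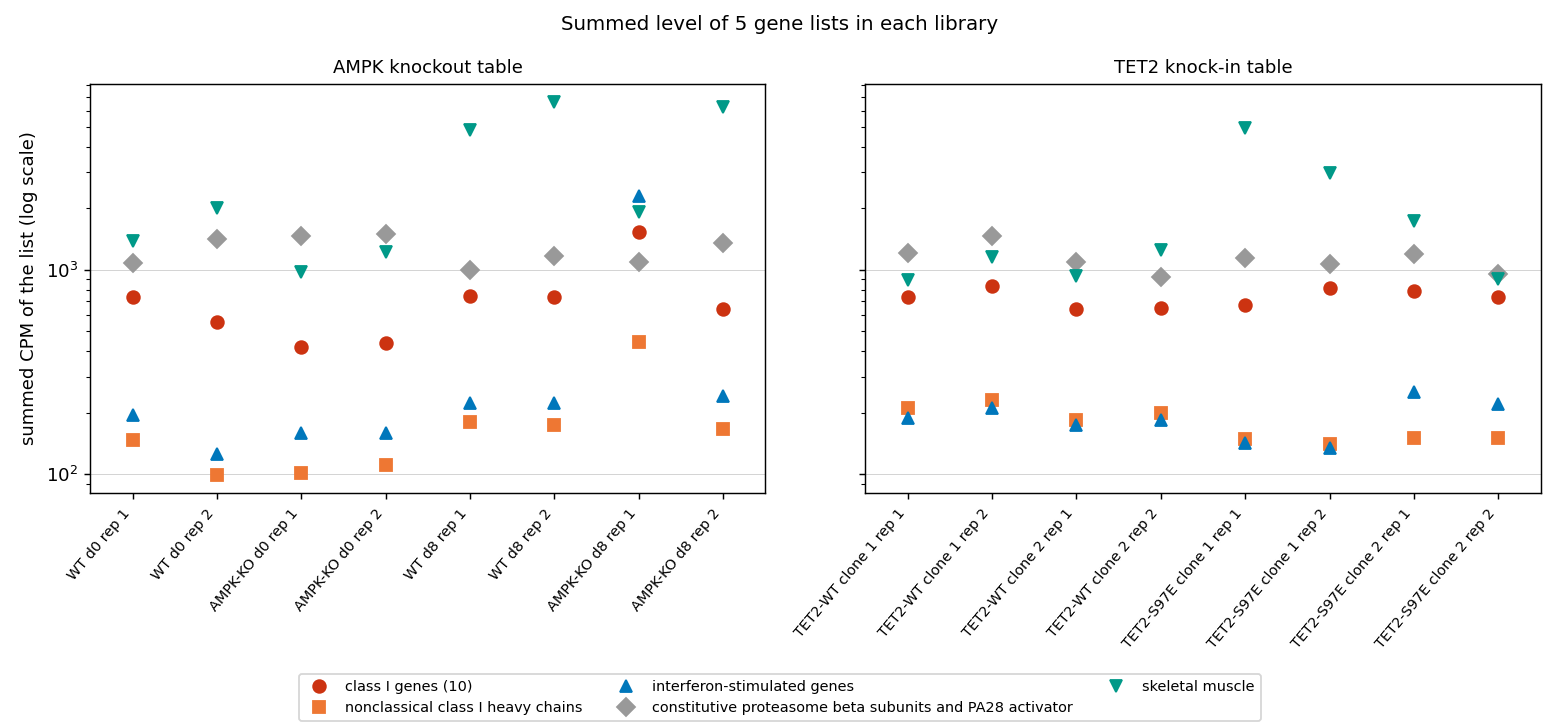
Summed CPM (log axis) of the 10 class I genes and 4 other gene lists in each library of the AMPK table (left) and the TET2 table (right). The class I genes and the interferon-stimulated genes are highest in AMPK-KO d8 replicate 1, at 1534 and 2293 CPM, where the muscle list is lower than in the other d8 libraries.

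During differentiation of WT cells no class I gene passed the test. None of the 8 tested genes was called by edgeR between d8 and d0 (0 at an unadjusted p under 0.05), beside 12.4% of all genes, or by DESeq2, beside 19.7%. The log2 changes ran from −0.53 for Nlrc5 to 0.74 for Tap2, and B2m changed by 0.19 (interval −0.53 to 0.92). In AMPK-KO cells all 8 were positive and B2m, from 201 and 192 CPM at d0 to 811 and 345 at d8, was called (log2 change 1.56, SE 0.38, edgeR adjusted p = 0.0474). That 1 of 8 stood beside 9.76% of all genes called in either direction and 4.81% called higher, and DESeq2 called 3, B2m, Tap1 and Tapbp, beside 9.74% called higher. The B2m call was lost without AMPK-KO d8 replicate 1 (log2 change 0.82, adjusted p = 0.103), although both d8 libraries were above both d0 libraries. It held in 1 of the 8 fits that left out a library, the one without AMPK-KO d8 replicate 2.

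Tap1 went from 0.994 and 0.701 CPM to 11.6 and 1.17 in AMPK-KO (log2 change 2.91, SE 0.973, edgeR adjusted p = 0.105). Tapbp went from 74.1 and 109 to 383 and 176 CPM (log2 change 1.61, SE 0.45, edgeR adjusted p = 0.0675). These changes were 0.47 for Tap1 and 0.95 for Tapbp without AMPK-KO d8 replicate 1. Together with B2m, Psmb10 and Tap2, these were the 5 of 8 genes whose AMPK-KO d8 libraries were both above d0, which held for 30.2% of all genes. The median of the 8 was 1.55, beside 0.0211 over all genes, and 0.336 without AMPK-KO d8 replicate 1. Muscle genes rose over the same days, with 6 of 9 called higher in AMPK-KO (median 7.51) and 6 of 9 in WT (median 4.39), and the fibroblast gene Dcn was called higher in both. Their part in the B2m change was not tested. Both time courses use the libraries of the comparisons between genotypes. The difference between them, tested directly, was called for 0 of 8 genes, beside 0% of all genes, with 1 at an unadjusted p under 0.05. DESeq2 likewise called 0, beside 0.474% of all genes. B2m had an estimate of 1.36 (SE 0.527, unadjusted p = 0.0354, edgeR adjusted p = 0.953), and 0.66 (SE 0.318) without AMPK-KO d8 replicate 1.

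Genes around the pathway were read from lists of its relatives. At d0, 0 of 12 nonclassical heavy chains, 0 of 8 loading factors, 0 of 11 genes of the proteasome and its PA28 activator, 0 of 20 regulators and 0 of 21 interferon-stimulated genes were called by edgeR. Ulbp1, a stress ligand of the NK receptor NKG2D, was the 1 call among 5 tested genes of NK receptor ligands, at 27.4 and 45.4 CPM in WT and at 0.262 and 1.12 in AMPK-KO (log2 change −5.68, edgeR adjusted p = 0.00878). At d8 Ulbp1 was again lower, at 10.2 and 8.87 CPM against 0.53 and 0.777 (adjusted p = 0.0167). Of the 5, 2 were higher in AMPK-KO at d8, Raet1e and Raet1d, both NKG2D ligands, and 1 was lower. Raet1e was at 9.2 and 8.21 CPM in WT and at 40.5 and 27.9 in AMPK-KO (log2 change 1.98, edgeR adjusted p = 0.0132), and Raet1d changed by 2.56 (adjusted p = 0.0332). Without AMPK-KO d8 replicate 1 the d8 change was −3.59 for Ulbp1 (edgeR adjusted p = 0.0835), 1.70 for Raet1e (adjusted p = 0.0438) and 1.75 for Raet1d (adjusted p = 0.095).

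Among regulators and interferon signalling genes at d8, Irf1 and Ifngr1 were higher in both AMPK-KO libraries by similar amounts. Irf1, a transcription factor that acts on class I promoters, was at 23.3 and 21.7 CPM in WT and at 47 and 44.5 in AMPK-KO (log2 change 1.02, SE 0.203, edgeR adjusted p = 0.0363). It was the 1 call among 20 regulators, beside 5.35% of all genes called in either direction and 1.36% called higher. Ifngr1, a chain of the interferon-gamma receptor, was at 49.8 and 50.5 CPM against 114 and 93.9 (log2 change 1.05, edgeR adjusted p = 0.0163), the 1 call in a list of 9 tested interferon receptor and signalling genes that includes Janus kinases and SOCS inhibitors. Their changes were 1.00 and 0.92 without AMPK-KO d8 replicate 1, with edgeR adjusted p = 0.136 and 0.0718.

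Of 21 interferon-stimulated genes at d8, 2 were called higher, Ifi35 and Ifit1, and 0 lower, with a median of 3.66, and all 21 estimates were positive. Without AMPK-KO d8 replicate 1, 0 were called higher and Xaf1 was called lower, and the median was 0.657. Between d0 and d8 in AMPK-KO, 5 of 21 were called higher, among them Gbp2, Ifit1 and Xaf1, beside 4.81% of all genes called higher. All 21 estimates were positive (median 5.25), and the median was 1.72 without AMPK-KO d8 replicate 1. Some of the 21 may have passed the filter on low counts only through the AMPK-KO d8 group, where they were high, so these tallies are not read as support. H2-T23 rose too (log2 change 2.30, SE 0.549, edgeR adjusted p = 0.0448), the 1 call among 12 nonclassical heavy chains, beside 4.81% of all genes called higher. It was not called without AMPK-KO d8 replicate 1 (log2 change 1.30). In WT, 0 of 21 interferon-stimulated genes and 0 of 12 nonclassical heavy chains were called between d0 and d8. Psmb5, Psmb6 and Psmb7 were called in none of these comparisons, with changes at d8 of −0.26, 0.04 and −0.06. These were −0.15, 0.30 and 0.23 without AMPK-KO d8 replicate 1.

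**Figure D4:**
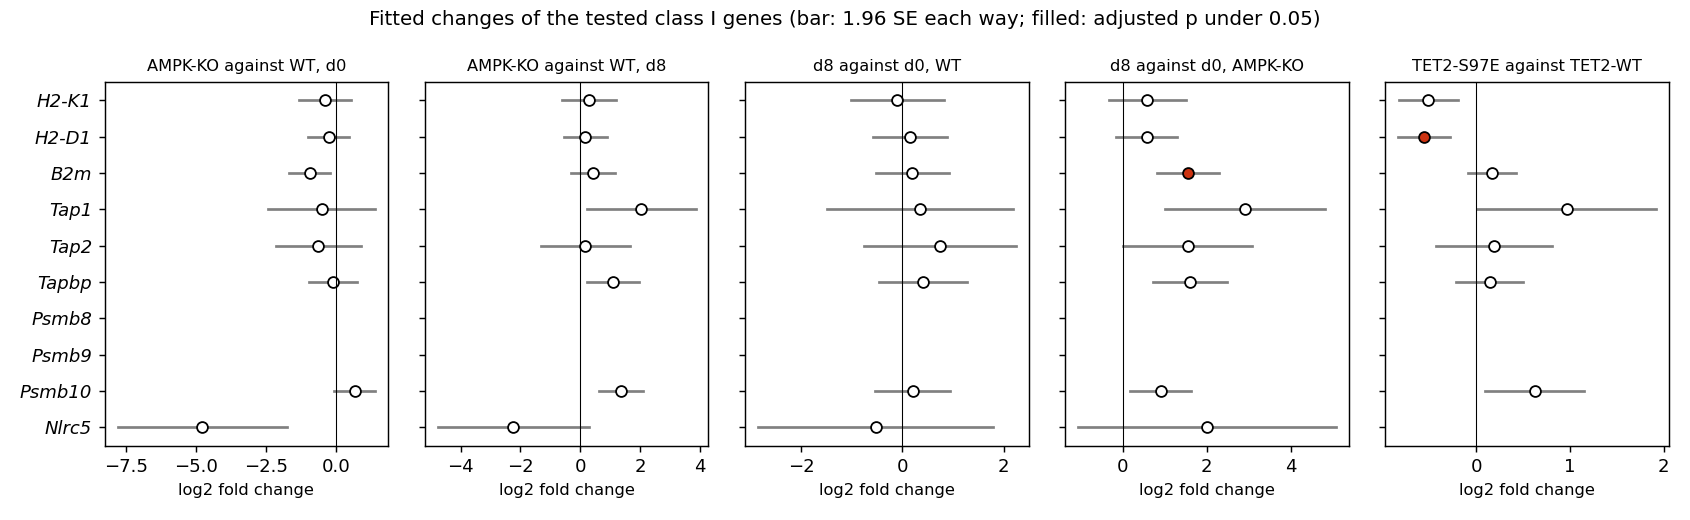
Log2 changes of the tested class I genes in 5 comparisons, with bars of nominal 95% intervals (normal approximation) and filled points where the edgeR adjusted p passed the threshold. The filled points are B2m in AMPK-KO between d0 and d8 and H2-D1 in TET2-S97E, and in TET2-S97E the H2-D1 interval lies below 0 while the B2m interval spans it.

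On the AMPK-null background, H2-D1 RNA was lower in the TET2-S97E libraries than in the TET2-WT libraries, a call that did not hold over clones, while H2-K1 missed the edgeR threshold and B2m showed no detectable difference. H2-D1 was at 56.8, 67.1, 50 and 55 CPM in the 4 TET2-WT libraries and at 35.7, 35.8, 47 and 37.1 in the 4 TET2-S97E libraries, clone 1 first in each. All 4 TET2-S97E libraries were below all 4 TET2-WT libraries, and H2-D1 was called with replicates of a clone as separate samples (log2 change −0.56, SE 0.14, edgeR adjusted p = 0.0436). It was not called with the replicates of each clone summed (log2 change −0.62, edgeR adjusted p = 0.373), in limma-voom with clone as a block (adjusted p = 0.142) or with the replicate block in edgeR (adjusted p = 0.0583). H2-K1 was at 67.1, 92.5, 58.5 and 74.3 CPM in TET2-WT and at 45.3, 48.8, 60.5 and 50.5 in TET2-S97E (log2 change −0.51, SE 0.16, edgeR adjusted p = 0.0886). Its groups overlapped in 1 library of each, and DESeq2 called it (adjusted p = 0.0353). B2m was at 460, 482, 413 and 397 CPM against 454, 578, 480 and 458 (log2 change 0.17, interval −0.09 to 0.43).

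No other gene of the pathway passed the test. Psmb10 was at 8.95, 13.4, 8.29 and 6.56 CPM in TET2-WT and at 11.8, 11.4, 20.7 and 13.4 in TET2-S97E (log2 change 0.62, SE 0.272, edgeR adjusted p = 0.204). Tap1 was at 0.633, 1.05, 0.641 and 1.57 CPM against 1.06, 0.976, 3.13 and 2.52 (log2 change 0.96, edgeR adjusted p = 0.271). The groups overlapped for both, and the highest library was TET2-S97E clone 2 replicate 1. Tap2 and Tapbp had log2 changes of 0.19 and 0.14, with intervals of −0.43 to 0.81 and −0.21 to 0.50. Nlrc5, with 0, 4, 7 and 5 counts in TET2-WT and 6, 12, 21 and 41 in TET2-S97E, was too low for the genotype test, as were Psmb8 and Psmb9 at no more than 7 counts in any library.

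Of the 7 genes tested here, 1 was called by edgeR, beside 6.98% of all genes called in either direction and 3.28% called lower. DESeq2 called both heavy chains, beside 6.29% of all genes called lower, and 1 of 7 had TET2-S97E wholly below TET2-WT, beside 7.99% of all genes. With the replicates of the 4 clones summed, edgeR called 0 of 15126 genes, with 1575 at an unadjusted p under 0.05, so the calls between the TET2 genotypes given here all treat the replicates of a clone as separate samples. The H2-D1 call was also lost on leaving out either TET2-WT clone, TET2-S97E clone 1, or any 1 library other than TET2-S97E clone 2 replicate 1. Tet2 itself was at 34.3, 22.5, 58.4 and 56.4 CPM in TET2-WT and at 12.9, 22, 7.88 and 22.1 in TET2-S97E (edgeR adjusted p = 0.0621).

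Of the nonclassical heavy chains, H2-Q4 and H2-T23 fell as well. H2-Q4 was at 10.8, 13.7, 11.5 and 15.9 CPM in TET2-WT and at 3.93, 4.23, 3.13 and 4.61 in TET2-S97E (log2 change −1.71, SE 0.207, edgeR adjusted p = 0.00559). H2-T23 was at 71.2, 82.6, 53.6 and 55.6 CPM against 27.5, 34.6, 35.9 and 41.6 (log2 change −0.91, SE 0.179, edgeR adjusted p = 0.0206). Neither gene's groups overlapped, and these 2 were the calls among 10 tested, 9 of which were negative (median −0.437). The counts of H2-K1, H2-D1 and the nonclassical H2 genes were also added together, leaving out Cd1d1 and Mr1 of that list. This heavy chain sum was lower in TET2-S97E as well (log2 change −0.58, edgeR adjusted p = 0.0419). The part of reads shifted between these relatives, or lost, was not tested. With the replicates of each clone summed, the log2 changes were −1.73 for H2-Q4, −0.93 for H2-T23 and −0.63 for the heavy chain sum, none of them called (edgeR adjusted p = 0.277, 0.344 and 0.424).

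Among 20 regulators, Nfkb1, a subunit of NF-kappaB, was the 1 call, beside 6.98% of all genes called. It was at 120, 115, 125 and 106 CPM in TET2-WT and 56.5, 57.3, 78 and 83.2 in TET2-S97E (log2 change −0.76, edgeR adjusted p = 0.0217). Irf1 was at 32.9, 34.2, 33.6 and 41.1 CPM against 24.3, 28.5, 49.3 and 52.8 (edgeR adjusted p = 0.813). Of 14 interferon-stimulated genes only Ifih1, a sensor of double-stranded RNA, was called lower: it had 64, 54, 94 and 114 counts in TET2-WT and 0, 1, 3 and 0 in TET2-S97E (edgeR adjusted p = 0.0061). Ifih1 passed the filter on low counts through the TET2-WT libraries, where it was high, so its call is not read as support. None of the 8 loading factors, 11 genes of the proteasome and its PA28 activator, 9 interferon receptor and signalling genes or 5 NK receptor ligands was called. Muscle genes differed between the genotypes in the same libraries, with 5 of 8 called higher in TET2-S97E. Myog was at 0.407, 0.633, 2.11 and 13.9 CPM against 141, 180, 56.6 and 42.1. Of 2 tested endothelial genes, both were negative (median −1.02), and Tek was called lower. The part of either list in the heavy chain difference was not tested. With the replicates of each clone summed, Nfkb1, Ifih1, Tek and the muscle genes were not called (edgeR adjusted p = 0.356 for Nfkb1 and 0.277 for Ifih1).

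**Figure D5:**
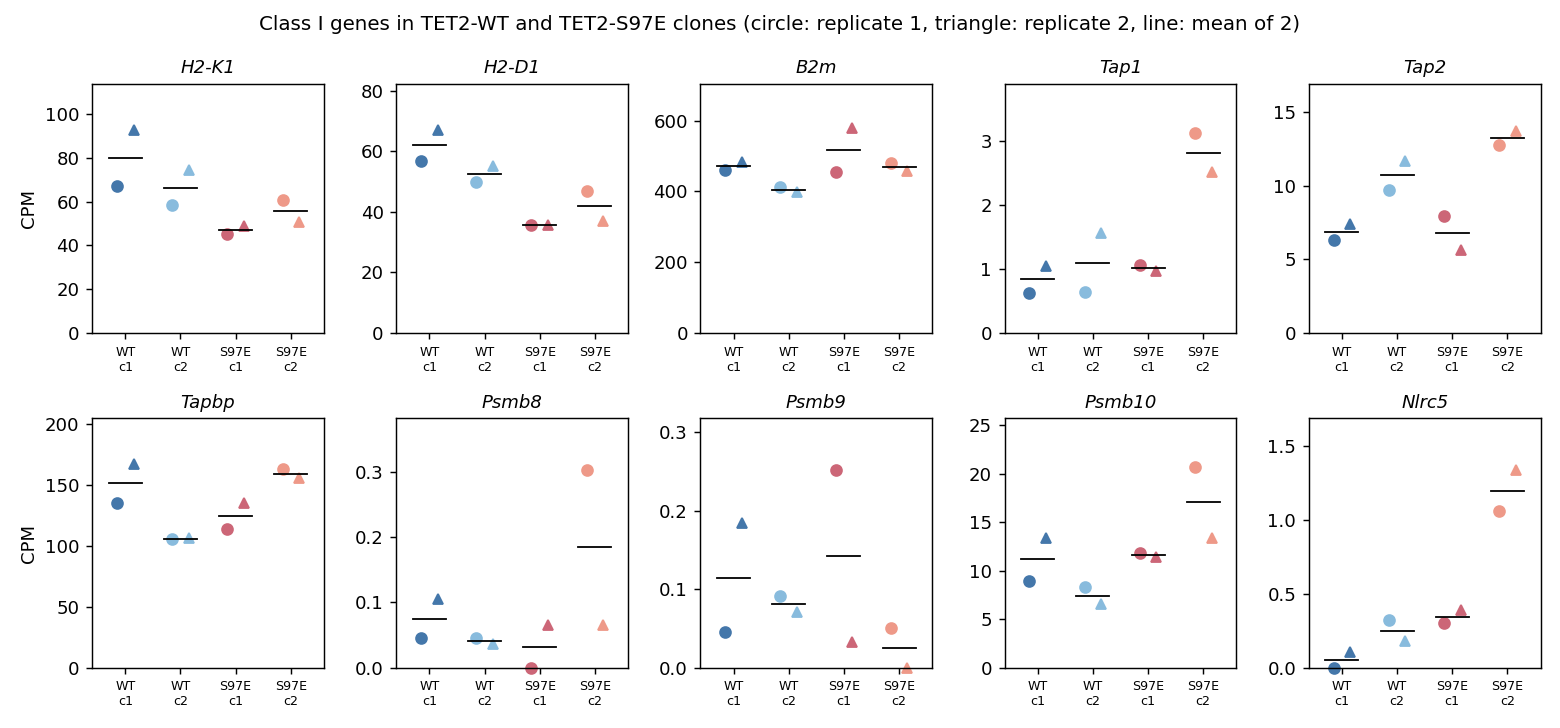
Level of each of the 10 genes (CPM, linear axes from 0 that differ between panels) in the TET2-WT and TET2-S97E clones (c1 and c2), with circles for replicate 1, triangles for replicate 2 and a line at the clone mean. H2-D1 is lower in all 4 TET2-S97E libraries, while Tap1, Tap2 and Nlrc5 are highest in TET2-S97E clone 2.

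Clones of the same genotype were compared too, and no class I gene passed the test in the main edgeR fit. In TET2-S97E, clone 2 was above clone 1 for Tap2, at 12.7 and 13.7 CPM against 7.92 and 5.63 (log2 change 0.97, SE 0.246, edgeR adjusted p = 0.0513). With the replicate block, and with upper-quartile scaling, edgeR called Tap2 between these clones. Tap1 differed by 1.47 (SE 0.527, adjusted p = 0.152) in the same direction. Nlrc5 had 21 and 41 counts in clone 2 against 6 and 12 in clone 1, and at most 7 in TET2-WT, so it entered the clone fit only through the clone where it was high and its difference is not read as support. Leaving it aside, both clone 2 libraries were higher for 6 of 7 genes, all but B2m, beside 26.1% of all genes. None of the 7 was called in the main edgeR fit, with Tap1 and Tap2 at an unadjusted p under 0.05, beside 6.17% of all genes called. DESeq2 called Tap2, beside 4.5% of all genes called higher. The interferon-stimulated genes moved between these clones as well: 4 of 16 were called higher in clone 2, among them Irgm1, Ifit3 and Ifi27, and 15 of 16 were positive (median 1.24). For genotype only 14 of that list were tested, so some of the 16 may have passed the filter through a single clone. Irf1 was called higher in clone 2 (log2 change 0.95, edgeR adjusted p = 0.0128), and H2-M3, which presents formylated peptides, was called lower, at 2.93 and 2.91 CPM against 12.3 and 9.01 (adjusted p = 0.00402). Muscle genes were lower in clone 2, with 8 of 8 negative (median −1.64) and Myod1, Des and Myh3 called, and their summed level was 4955 and 2973 CPM in clone 1 against 1739 and 897.8 in clone 2. Of 5 fibroblast genes, Dcn and Lum were called higher. Of 2 tested endothelial genes, Cdh5 was called lower and 1 was positive (median −2.72). Of 2 tested leukocyte genes, both were negative (median −1.15), with 0 called and 1 at an unadjusted p under 0.05 by edgeR. The part of these lists in the class I values was not tested.

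In TET2-WT, Tapbp and Tap2 were separated by clone in opposite directions. Tapbp was at 136 and 168 CPM in clone 1 and at 106 and 107 in clone 2 (log2 change −0.52, SE 0.167, edgeR adjusted p = 0.151). Tap2 was higher in clone 2, at 9.71 and 11.7 CPM against 6.29 and 7.41 (log2 change 0.63, adjusted p = 0.2). Clone 2 was wholly lower for 4 of 8 genes (B2m, Psmb10, Tapbp and H2-D1), beside 27.2% of all genes. The 8 include Nlrc5, which entered this fit only through TET2-S97E clone 2. edgeR called 0, with 2 at an unadjusted p under 0.05, beside 0.858% of all genes, and DESeq2 called 0, beside 6.56%. None of 11 nonclassical heavy chains and none of 16 interferon-stimulated genes was called by edgeR. Other lists moved between these clones: 7 of 8 muscle genes were higher in clone 2 in their estimates (median 2.55) with Myod1 called, and all 5 fibroblast genes were positive with Col1a1 and Lum called. All 11 genes of the list of constitutive beta subunits, PA28 activator and assembly factor were negative, with 0 called and 5 at an unadjusted p under 0.05 by edgeR. The part of these lists in the class I values was not tested.

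The genes whose levels ran closest to the mean of the class I genes were found by the root mean square difference of centred log2 CPM over the 8 libraries of a table. In the AMPK table they were Tlr3 (0.275), Gm43909 (0.29), H2-Q1 (0.312), Cxxc5 (0.313) and Plcl1 (0.313), measured against 8 genes. Tlr3 is a receptor for double-stranded RNA and H2-Q1 a nonclassical heavy chain. In the TET2 table, where the class I mean varied less, they were Cdkn2d (0.073), Evl (0.0732), Rhob (0.0935), Creb3l1 (0.0948) and Tubb5 (0.0976), measured against 7 genes. No gene was among the closest in both tables.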

How the data were processed

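Total RNA of 16 C2C12 libraries was depleted of ribosomal RNA and sequenced as paired ends. The authors trimmed reads with Trim Galore 0.4.5, aligned them to GRCm38 with STAR 2.5.3a in 2 passes and counted them per gene with featureCounts 1.5.3 on GENCODE M12, by the paper's methods and the submitters' processing notes. The deposited values are whole counts, not normalized, with 1 table per experiment. Strand and multi-mapping settings are not given in the sources used here.

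Gene names, exon lengths and positions came from GENCODE M21, in which 49326 of 49585 identifiers were found. Counts were tested in R 4.3.3 with edgeR 4.0.16 (TMM scaling, filterByExpr, glmQLFit, glmQLFTest), with Benjamini-Hochberg adjustment over 14329 genes in the AMPK table, 13433 for TET2 genotype and 14459 for clones, at a threshold of 0.05. The AMPK table was fitted with 4 group means (4 residual degrees of freedom), TET2 with genotype alone (6) and with clone groups (4). Standard errors came from the F statistic. Intervals of log2 changes are nominal 95%, from a normal approximation to these errors. They are narrower than the edgeR test allows at few degrees of freedom, so some exclude 0 at an unadjusted p above 0.05. The detection floor was 3 counts per library. No 2 replicates agreed within sampling noise. Scripts were tested on simulated counts. Alternatives were DESeq2 1.42.0, limma-voom (limma 3.58.1), other scaling and filters, clones summed or left out, the replicate block and each library left out. Clone sums for genes other than the class I genes, and lists without AMPK-KO d8 replicate 1, were added after seeing the data.

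Same-numbered replicates of the AMPK table deviated together (6 correlations, 0.108 to 0.307), so the block was fitted there, and it changed no count of called class I genes. Named were the 10 class I genes, and from each list of related genes or cell type markers at most 3 called genes with the lowest adjusted p, with Irf1, Ifit1, Psmb5, Psmb6 and Psmb7. Rae1, an RNA export gene in the list of NK ligands, was left out of its counts. Some genes of the lists are not reported here. Other genes named for a level (H2-T23, H2-Q4, Myog, Myh3, Des, Ifnb1, the leukocyte markers) were chosen after values were seen, as were Ifngr1 and Irf1 beside a left-out library. The genes, lists and motifs were chosen with earlier results of these data known. MHC class II genes summed to 2.331 to 8.526 CPM in the AMPK table and 9.177 to 19.65 in the TET2 table, endothelial markers to 2.198 to 13.04 and 1.209 to 6.918, and fibroblast markers to 1511 to 5236 and 1701 to 3656.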

Additional observations from a re-analysis of the deposited data

Results flagged for a closer look

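H2-D1 was at 47 CPM in TET2-S97E clone 2 replicate 1, while the other 3 TET2-S97E libraries lay between 35.7 and 37.1. The gap to the nearest was 0.872 of the range of the 4 libraries, above Dixon's limit at 95%. Psmb8 was at 0.106 CPM in TET2-WT clone 1 replicate 2, from 4 counts, while the other 3 TET2-WT libraries lay between 0.0356 and 0.0458, with 1 count each (gap 0.855 of the range). Chance marks about 1 in 20 groups in this way.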

How the results depend on the processing

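The counts of class I genes called depended on the tool and filter. Without a filter on low counts, 2 were called lower in AMPK-KO at d0, beside 573 higher and 1453 lower of 25084 genes. At d8, 5 were called, beside 833 higher and 1670 lower, and these included Psmb8, too low for the main test, and Nlrc5. For d8 against d0 in AMPK-KO, 7 were called, beside 1717 higher and 1322 lower. The difference of the changes gave 3, beside 268 higher and 181 lower. Between the TET2-S97E clones, 1 was called, beside 827 higher and 853 lower of 25592. Unfiltered counts take in genes near the floor and are not read as support. DESeq2 called 1, 1, 3, 2 and 1 at d0, at d8, for d8 against d0 in AMPK-KO, for TET2-S97E against TET2-WT and between the TET2-S97E clones. The shares of all genes that DESeq2 called are given with each comparison above. Upper-quartile scaling called Tap2 between the TET2-S97E clones (1), beside 501 of 14459 genes called higher. With 1 library of the AMPK table left out, a lone library was assumed to vary like the other groups. Without AMPK-KO d8 replicate 2, Psmb8 and Psmb9 could pass the filter on low counts through AMPK-KO d8 replicate 1 alone, where they were high. Counts of calls in these fits are therefore not read as support. The B2m log2 change for d8 against d0 in AMPK-KO was 0.819 without AMPK-KO d8 replicate 1 and 2.02 without AMPK-KO d8 replicate 2. For TET2-S97E against TET2-WT the counts with 1 library left out ran from 0 to 1. The 1 was H2-D1 without TET2-S97E clone 2 replicate 1, beside 342 of 14031 genes called lower. In the TET2 table the correlations of same-numbered replicates ran from −0.0262 to 0.502, over 0.1 in some pairs of clones and not in others, so the numbers were not taken as pairs. The replicate block left 0 calls for genotype (H2-D1 edgeR adjusted p = 0.0583), beside 428 of 13433 genes called lower. It gave 1 between the TET2-S97E clones (Tap2, edgeR adjusted p = 0.0344), beside 803 of 14459 genes called higher. Summing clones, limma-voom with clone as a block and leaving out either TET2-WT clone or TET2-S97E clone 1 each left 0 calls for genotype. The cause was not tested.

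Signs turned only for changes that were not called. With the replicate block Tapbp at d0 was 0.00407 and Tap2 at d8 was −0.193. Without TET2-WT clone 1 Tap2 was −0.0999, without TET2-WT clone 2 Tapbp was −0.098, and without TET2-S97E clone 2 they were −0.381 and −0.0446. With 1 library left out, log2 changes at d0 ran from −1.49 to 0.49 for Tap2 and −0.518 to 0.479 for Tapbp. At d8 they ran from −0.791 to 0.881 for H2-K1, −0.606 to 0.644 for H2-D1, −0.296 to 0.883 for B2m, −0.385 to 2.87 for Tap1 and −0.803 to 0.727 for Tap2. For d8 against d0 they ran from −0.202 to 0.00247 for H2-K1 in WT, and in AMPK-KO from −0.513 to 1.18 for H2-K1, −0.21 to 1.06 for H2-D1 and −4.65 to 6.69 for Nlrc5. The difference of the changes ran from −0.386 to 1.28 for H2-K1, −0.328 to 0.912 for H2-D1, −0.294 to 1.63 for Tap2 and −4.09 to 7.22 for Nlrc5. In the TET2 table the ranges were −0.00535 to 0.386 for Tap2 by genotype, −0.421 to 0.848 for Tap1 between TET2-WT clones and −0.292 to 0.0508 for B2m between TET2-S97E clones. Of all values of single genes under the alternatives, 903 kept direction and side of the threshold, 30 passed it, 20 fell short of it and 27 turned sign. Fitted changes of Nlrc5 against a library at 0 counts depend on the prior count, and Psmb8 and Psmb9 are limited by depth.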
